A study of Arabidopsis thaliana with 30 samples.

Results

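The genotype by heat interaction asks, gene by gene, whether seedlings of the bdr1,2,3 mutant responded to warming as the wild type did. It was taken from the heat shock experiment of the series, which holds 12 of the 30 libraries, as the response of bdr1,2,3 (27 °C minus 12 °C) minus the response of the wild type. All genes in the count table were members, 33602 in all, of which 19473 passed the filter on low counts and were tested. The 4 groups were bdr1,2,3 at 27 °C, bdr1,2,3 at 12 °C, wild type at 27 °C and wild type at 12 °C, with 3 libraries each. All were whole seedlings of the Col-0 ecotype of Arabidopsis thaliana, raised on plates for 12 days at 12 °C in long days (16 h light and 8 h dark). The 27 °C groups (heat) then spent 4 h at 27 °C, and the 12 °C groups (cold) stayed where they were. The bdr1,2,3 plants carry 1 T-DNA insertion in each of BDR1, BDR2 and BDR3 (alleles bdr1-1, bdr2-1 and bdr3-1), so they are a single triple mutant line and the effects of the 3 genes cannot be told apart. Each plate gave a replicate. Nothing says that the plates of a group came from separate sowings, so p-values measure the spread between plates.

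BORDER (BDR) proteins carry a SPOC domain and the central domain of the elongation factor TFIIS, and act in the spaces between genes, where RNA polymerase II slows at the end of a gene. When plants are warmed, heat shock factors switch on chaperone genes, growth genes of the PIF4 pathway are released, and the cold programme (CBF factors and their COR targets) is shut down. Many defence genes, membrane lipid desaturases and flowering regulators also follow temperature. A positive interaction means a response that is more upward in bdr1,2,3, a negative one a response that is more downward. Values are log2 fold changes from edgeR's quasi-likelihood test unless given as CPM (counts scaled by TMM to a common library size). Called genes are those whose p-value, adjusted by Benjamini and Hochberg's method over all genes tested, was under 0.05.

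BDR1 was at 1.69, 2.7 and 1.92 CPM in bdr1,2,3 at 27 °C and at 1.77, 1.66 and 3.65 CPM in bdr1,2,3 at 12 °C, against 68.3, 71.9 and 73.1 CPM in the wild type at 27 °C and 52.4, 51.7 and 55.5 CPM in the wild type at 12 °C. BDR2 averaged 9.5 ± 0.413 and 8.96 ± 1.86 CPM in bdr1,2,3 at 27 and 12 °C, against 16.0 ± 0.205 and 14.1 ± 0.546 CPM in the wild type (SD, n = 3 each). BDR3 averaged 6.3 ± 0.858 and 5.51 ± 0.287 CPM in bdr1,2,3, against 8.75 ± 0.836 and 5.7 ± 0.645 CPM in the wild type at the same temperatures. BDR1 and BDR2 were lower in the mutant at both temperatures and BDR3 at 27 °C only (genotype effect at 12 °C -0.06, adjusted p = 0.86). Reads were counted over whole genes, and reads on either side of an insertion still count. All 3 overlap another annotated gene, and none was called in the interaction (adjusted p from 0.42 to 0.87).

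Total counts ran from 6823975 to 22458726 per library. All replicate pairs differed by more than sampling noise (chi-square per degree of freedom 2.02 to 14.7). On the first principal component of the 500 most variable genes, which separated the temperatures and held 72.9% of the variance, replicate 1 lay beyond the other replicates among the heat libraries of both genotypes (39.8 against 31.6 and 31.6 in bdr1,2,3, and 34.2 against 24.3 and 22.8 in the wild type). Leaf mesophyll markers were abundant in every library, with summed levels from 19400 to 32400 CPM. Summed levels of 6 seed storage and maturation genes were 17.6 to 22.9 CPM in bdr1,2,3 at 27 °C and 11.7 to 14.9 CPM in bdr1,2,3 at 12 °C, against 2.31 to 6.41 CPM in the wild type at 27 °C and 2.49 to 8.56 CPM in the wild type at 12 °C. None of those 6 was called in the interaction, and their part in the results was not tested. In seedlings taken whole, fewer cells of a type and less RNA per cell cannot be told apart.

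Warming moved most of the transcriptome in both genotypes, and for a small group of genes the 2 genotypes answered differently. The heat response was called for 11803 genes in bdr1,2,3 (60.6% of the genes tested) and for 11249 in the wild type (57.8%). The interaction was called for 198 genes, 1.02% of those tested. It was positive for 95 (0.488% of the genes tested) and negative for 103 (0.529%). Called or not, 8962 genes had a positive and 10511 a negative value, the split against which the gene lists are to be read. At an unadjusted p under 0.05 there were 2526 genes. The median interaction over all genes was -0.02, with a median SE of 0.17. In simulated counts, 99% of changes of 1 and 19% of changes of 0.5 were recovered. These changes were placed only in genes that averaged at least 5 CPM in every group. In the simulation, a difference of 1 on the log2 scale was mostly within reach for such genes and small differences mostly were not. Recovery at lower levels was not simulated, and some genes had a far larger SE, such as COR15A (0.70). This was also seen at higher levels: HSP60 (AT3G23990) had an SE of 0.42 and group means of at least 47.2 CPM. With the size factors of DESeq2 in edgeR 97 calls were positive and 80 negative, and DESeq2 itself gave 166 positive and 121 negative calls. Of 9317 genes called in both genotypes, 37 changed in opposite directions.

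Sorted by their responses, 69 of the 198 genes responded less in bdr1,2,3 than in the wild type (35 weaker rises and 34 weaker falls), 101 responded more (47 stronger rises and 54 stronger falls) and 28 were reversed, with both responses called and of opposite sign. In the weaker classes, 19 of the 35 weaker rises and 17 of the 34 weaker falls had no called response in bdr1,2,3. A response that was not called is not shown to be absent. Conversely, 28 of the 47 stronger rises and 33 of the 54 stronger falls had no called response in the wild type. The absolute interaction had a median of 0.78 over the 198 genes and ran from 0.42 to 4.70. The top value, that of the kinase gene ARCK1, is not a measured fold, since ARCK1 had at most 3 counts in every library of the warm wild type. The genotypes differed at 27 °C only for 100 of the 198 genes, at 12 °C only for 36, at both in the same direction for 37 and at both in opposite directions for 25. Over all genes tested, the genotype effect was called for 19.4% at 27 °C and for 10.9% at 12 °C.

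**Figure D1:**
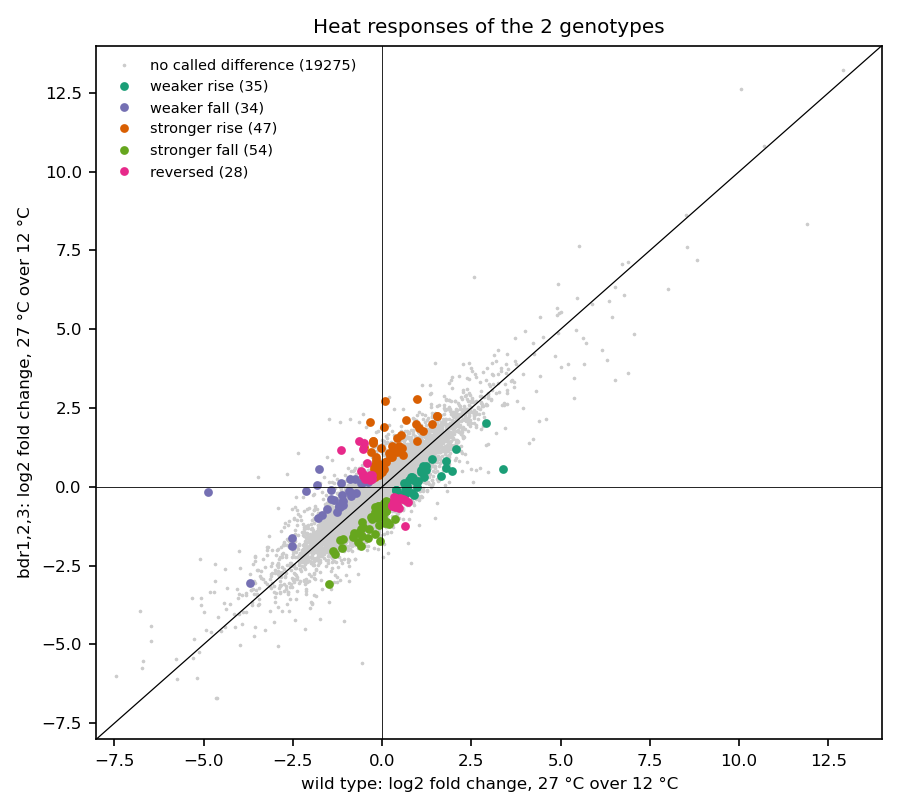
Heat response (log2 fold change, 27 °C over 12 °C) of each of the 19473 genes tested, bdr1,2,3 on the vertical and wild type on the horizontal axis. Grey points had no called difference, coloured points are the 198 called genes by class, and the diagonal marks equal responses. Most grey points lie along the diagonal. Weaker responses lie between the diagonal and the horizontal axis, some of them across that axis with a mutant response of the other sign that was not called. Reversed ones fall in the upper left and lower right parts.

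The number of calls depended on single libraries. It was 42 without wild type replicate 3 at 12 °C, 64 without bdr1,2,3 replicate 1 at 12 °C, 72 without wild type replicate 2 at 27 °C, and 96 and 99 without bdr1,2,3 replicate 3 or 1 at 27 °C. It was 106 without bdr1,2,3 replicate 2 at 12 °C, 111 without wild type replicate 1 at 12 °C and 354 without wild type replicate 1 at 27 °C. With both replicate 1 heat libraries left out, 213 genes were called, 134 of them among the 198. A core of 38 genes was called in each of the 12 fits that leave out 1 library. It held SOC1, FAD8, FCA, TEM1, LHCB2.1, LHCB2.2, NTRB, TLL1, ZIFL1 and AT4G26220.

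The difference with the lowest p-value was in SOC1 (AGL20, AT2G45660), a MADS-box factor that promotes flowering and brings together the signals of the cold-controlled repressor FLC, age and day length. SOC1 was at 2.61, 3.63 and 2.96 CPM in bdr1,2,3 at 27 °C and 25.2, 26.8 and 25.0 CPM in bdr1,2,3 at 12 °C. SOC1 in the wild type was at 29.8, 24.9 and 23.8 CPM at 27 °C and 76.0, 70.1 and 73.2 CPM at 12 °C. The warm wild type had about the level of the cold mutant, the cold wild type lay above both and the warm mutant far below. It fell in both genotypes (-3.08 in bdr1,2,3 and -1.49 in the wild type), with an interaction of -1.59 ± 0.16 (log2, SE), adjusted p = 0.00023.

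The other flowering regulators did not share one direction. SNZ, an AP2-type repressor of flowering, was at 6.28, 8.01 and 7.25 CPM in bdr1,2,3 at 27 °C and 15.5, 14.1 and 13.2 CPM in bdr1,2,3 at 12 °C, against 10.9, 12.5 and 13.4 CPM in the wild type at 27 °C and 15.5, 14.1 and 15.2 CPM in the wild type at 12 °C. Its fall was stronger in the mutant (-0.71 ± 0.17 (log2, SE), adjusted p = 0.049), called in 2 of the 12 fits that leave out 1 library, adjusted p up to 0.17 without bdr1,2,3 replicate 1 at 12 °C, and not called with DESeq2 (adjusted p = 0.053) and with its size factors in edgeR (adjusted p = 0.0599). TEM1, which represses the florigen gene FT, was at 73.3, 73.1 and 76.0 CPM in bdr1,2,3 at 27 °C and 83.2, 91.6 and 78.3 CPM in bdr1,2,3 at 12 °C. TEM1 in the wild type was at 59.6, 58.4 and 59.1 CPM at 27 °C and 103, 95.1 and 98.1 CPM at 12 °C. Its fall was weaker in the mutant (0.56 ± 0.10 (log2, SE), adjusted p = 0.014): bdr1,2,3 lay below the wild type at 12 °C and above it at 27 °C in every library.

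FCA, an RNA-binding protein that promotes flowering by lowering FLC through poly(A) site choice in antisense transcripts, was at 99.7, 80.8 and 84.1 CPM in bdr1,2,3 at 27 °C and 38.7, 36.0 and 41.8 CPM in bdr1,2,3 at 12 °C, against 52.0, 52.4 and 51.9 CPM in the wild type at 27 °C and 40.6, 36.5 and 44.8 CPM in the wild type at 12 °C. The genotypes overlapped in the cold and separated in the heat, and the rise was stronger in bdr1,2,3 (0.84 ± 0.13 (log2, SE), adjusted p = 0.005). FLC itself was already far higher in the mutant, at 123 ± 8.97 CPM in bdr1,2,3 at 27 °C and 104 ± 2.64 CPM in bdr1,2,3 at 12 °C, against 22.2 ± 2.38 and 25.7 ± 1.5 CPM in the wild type at 27 and 12 °C (SD, n = 3 each). Its interaction of 0.46 ± 0.12 missed the threshold with edgeR (adjusted p = 0.083) and passed it with DESeq2 (0.48, adjusted p = 0.0342) and without wild type replicate 3 at 27 °C (0.57, adjusted p = 0.0372). FLC overlaps another annotated gene on the antisense side. Of 13 tested flowering repressors and integrators, 1 was called positive (TEM1) and 2 negative (SOC1 and SNZ), 23.1% against 1.02% of all genes. Their median interaction was 0.05. FCA was counted in another list, that of RNA polymerase II elongation and termination. FT had at most 10 counts in a library and was not tested.

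**Figure D2:**
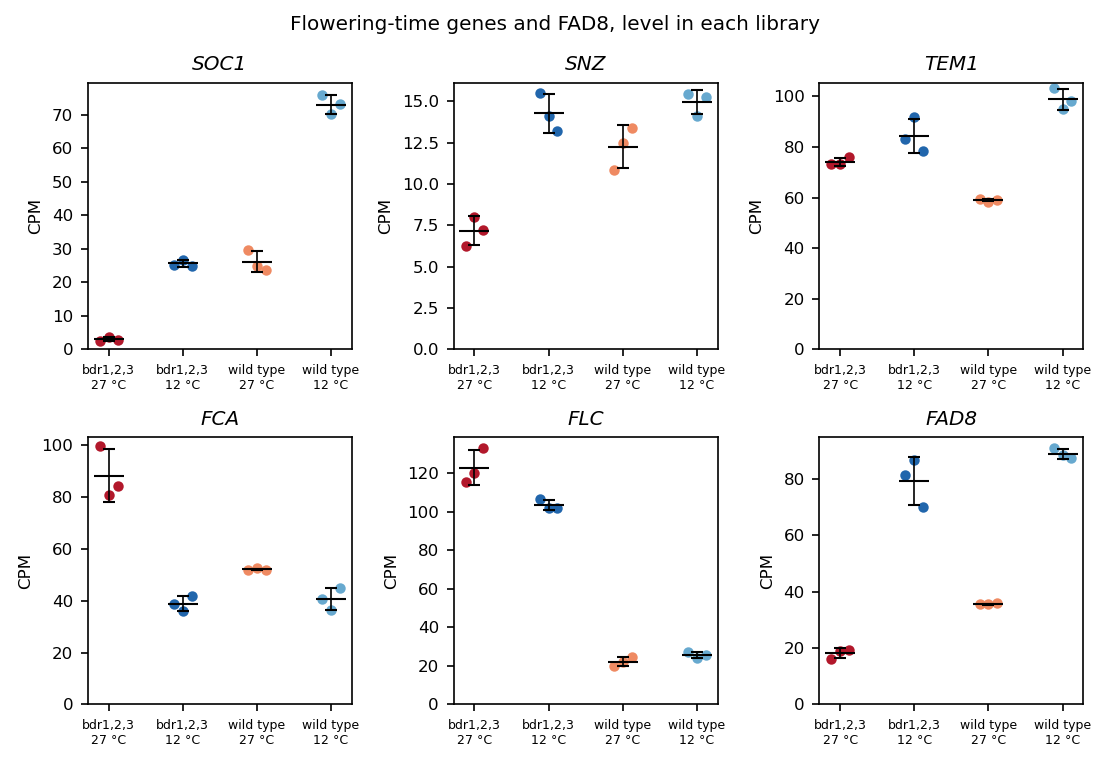
CPM of SOC1, SNZ, TEM1, FCA, FLC and FAD8 in each of the 12 libraries (points), with the mean and SD of each group of 3 (bars), on linear axes that start at 0. SOC1 is lowest in warm bdr1,2,3, FCA is highest there, and FLC separates the genotypes at both temperatures.

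Stronger falls were also seen in lipid desaturation. FAD8, a plastid omega-3 desaturase that makes trienoic fatty acids in the cold, was at 16.0, 19.1 and 19.4 CPM in bdr1,2,3 at 27 °C and 81.2, 86.7 and 70.0 CPM in bdr1,2,3 at 12 °C. FAD8 in the wild type was at 35.5, 35.5 and 35.8 CPM at 27 °C and 90.9, 88.3 and 87.5 CPM at 12 °C. The cold levels lay close together and the warm ones did not (genotype effect -0.17 at 12 °C and -0.97 at 27 °C), an interaction of -0.81 ± 0.12 (log2, SE), adjusted p = 0.005. FAD8 overlaps AT5G05590, and the use of strand in counting is not stated. SLD1, a sphingolipid desaturase, averaged 157 ± 11.6 CPM in bdr1,2,3 at 27 °C and 238 ± 13.2 CPM in bdr1,2,3 at 12 °C, against 173 ± 1.58 and 184 ± 18.5 CPM in the wild type at 27 and 12 °C (SD, n = 3 each). Its interaction was -0.51 ± 0.12 (log2, SE), adjusted p = 0.044, called in 4 of the 12 fits that leave out 1 library, adjusted p up to 0.18 without wild type replicate 3 at 12 °C, and not called with the size factors of DESeq2 in edgeR (adjusted p = 0.0583). Of 12 desaturase genes tested, these 2 were called, both negative (16.7%, against 0.529% of all genes tested). This and the other lists were chosen with earlier results of these data known, so list shares are descriptions and were not tested. A negative interaction was seen in 11 of the 12, against 10511 of all 19473 genes, and the median was -0.18, against -0.02. FAD3, the omega-3 desaturase of the endoplasmic reticulum, had an interaction of -0.53 (adjusted p = 0.054). The lowest value of the list, -0.90, belonged to a gene that was not called, and the highest value was 0.285.

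The largest stronger falls among genes that overlap no other were AGO7, SOC1, PPT2, AT5G19850, AT4G40045 and RECQ4B. AGO7, the ARGONAUTE that loads miR390 and starts trans-acting siRNA production from TAS3, was at 1.48, 2.52 and 1.41 CPM in bdr1,2,3 at 27 °C and 5.27, 5.52 and 6.67 CPM in bdr1,2,3 at 12 °C, against 5.54, 5.38 and 3.95 CPM in the wild type at 27 °C and 5.5, 4.33 and 5.28 CPM in the wild type at 12 °C. The 3 other groups overlapped, and the warm mutant stood below them (-1.67 ± 0.30 (log2, SE), adjusted p = 0.013, called in 11 of the 12 fits that leave out 1 library, adjusted p up to 0.051 without wild type replicate 3 at 12 °C). TAS3 itself (AT3G17185), singled out after its values were seen, was at 11.1, 9.51 and 11.3 CPM in bdr1,2,3 at 27 °C and 6.64, 6.15 and 5.34 CPM in bdr1,2,3 at 12 °C. TAS3 in the wild type was at 19.2, 16.4 and 14.9 CPM at 27 °C and 5.2, 4.61 and 4.75 CPM at 12 °C. It was above the wild type in the cold mutant and below it in the warm one, a weaker rise (-0.98 ± 0.19 (log2, SE), adjusted p = 0.021), called in 9 of those 12 fits. PPT2, which carries phosphoenolpyruvate across the plastid envelope, averaged 7.01 ± 0.956 CPM in bdr1,2,3 at 27 °C and 15.7 ± 3.37 CPM in bdr1,2,3 at 12 °C, against 10.4 ± 1.36 and 9.09 ± 0.24 CPM in the wild type at 27 and 12 °C. It was higher than the wild type in the cold mutant and lower in the warm one (-1.37 ± 0.22 (log2, SE), adjusted p = 0.007).

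RECQ4B, a RecQ helicase, averaged 3.17 ± 0.325 CPM in warm bdr1,2,3 and 6.95 ± 0.575 CPM in cold bdr1,2,3, against 8.49 ± 0.649 and 7.78 ± 0.947 CPM in the warm and cold wild type (-1.26 ± 0.21 (log2, SE), adjusted p = 0.0076). The hydrolase gene AT5G19850 (-1.301, adjusted p = 0.011, adjusted p up to 0.055 without wild type replicate 3 at 12 °C) and the uncharacterized AT4G40045 (-1.29, adjusted p = 0.0053) were below the wild type at both temperatures and further below at 27 °C. RD22, a dehydration-responsive gene, was higher in the cold mutant (genotype effect 0.45, adjusted p = 0.0061), lower in the warm mutant (-0.34, adjusted p = 0.022) and had an interaction of -0.79 (adjusted p = 0.013, adjusted p up to 0.069 without wild type replicate 3 at 12 °C), the only one of 25 abscisic acid genes tested that was called. That 1 call is 4.0% of the list, against 1.02% of all genes tested. Those 25 had a median interaction of 0.34 in the other direction, 19 of them positive. AUR2, an Aurora kinase of mitosis that overlaps AT2G25890, was the 1 called gene among 29 of mitosis and DNA replication (-0.73, adjusted p = 0.046), called in 2 of the 12 fits that leave out 1 library, adjusted p up to 0.15 without bdr1,2,3 replicate 1 at 12 °C, and not called with DESeq2 (adjusted p = 0.0705). The 1 call is 3.45% of the 29, against 1.02% of all genes tested. Of the 29, 27 had a negative interaction, with a median of -0.25.

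Among antenna proteins of photosynthesis, the called genes differed between genotypes in the cold. LHCB2.1, a chlorophyll-binding protein of the light-harvesting complex of photosystem II, was at 969, 992 and 1035 CPM in bdr1,2,3 at 27 °C and 1478, 1489 and 1537 CPM in bdr1,2,3 at 12 °C, against 979.6, 1057 and 1074 CPM in the wild type at 27 °C and 921, 786 and 871 CPM in the wild type at 12 °C. The warm groups overlapped, the cold mutant lay above all others, and the response was reversed (-0.59 in bdr1,2,3 and 0.27 in the wild type; interaction -0.86 ± 0.11 (log2, SE), adjusted p = 0.0016). Its close copy LHCB2.2 was at 842, 913 and 892 CPM in bdr1,2,3 at 27 °C and 949, 943 and 974 CPM in bdr1,2,3 at 12 °C. LHCB2.2 in the wild type was at 847, 979.6 and 953 CPM at 27 °C and 615, 584 and 594 CPM at 12 °C. It rose in the wild type and had no called response in bdr1,2,3 (-0.75 ± 0.11 (log2, SE), adjusted p = 0.0031). LHCB1.1 was called too (-0.81, adjusted p = 0.04, called in 3 of the 12 fits that leave out 1 library, adjusted p up to 0.16 without wild type replicate 3 at 12 °C). Members of the LHCB1 and LHCB2 families are near-identical, and how the counting split reads between them is uncertain. Of 20 antenna genes tested, these 3 were called, all negative (15%, against 0.529% of all genes tested). A negative interaction was seen in 15 of the 20, against 10511 of all 19473 genes, and the median was -0.21, against -0.02. The photosystem I antenna genes LHCA1, LHCA2 and LHCA3 had positive values (0.16 to 0.26), none of them called. The summed level of the leaf mesophyll markers, LHCB2.1 among them, was 19400 to 21600 CPM in warm bdr1,2,3 and 30400 to 32400 CPM in cold bdr1,2,3, against 20900 to 23900 and 28000 to 29300 CPM in the warm and cold wild type, and its part in the antenna result was not tested.

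The weaker rise of largest size was that of AT1G27420, a kelch repeat gene. It was at 0.353, 1.3 and 1.18 CPM in bdr1,2,3 at 27 °C and 0.487, 0.867 and 0.562 CPM in bdr1,2,3 at 12 °C, against 14.0, 11.7 and 8.58 CPM in the wild type at 27 °C and 0.818, 1.12 and 1.29 CPM in the wild type at 12 °C. The warm wild type stood apart from the other groups, and the interaction was -2.81 ± 0.57 (log2, SE), adjusted p = 0.027, called in 7 of the 12 fits that leave out 1 library, adjusted p up to 0.094 without bdr1,2,3 replicate 2 at 12 °C. Its upstream neighbour on the same strand, AT1G27410, ends 41 bp before it and averaged 1.19 and 0.425 CPM in warm and cold bdr1,2,3, against 14.3 and 3.33 CPM in the warm and cold wild type. AT1G27410 rose in both genotypes (1.50 and 2.07) and was not called in the interaction (adjusted p = 0.64).

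The other weaker rises named by size were those of AT5G66580, AT3G24000, AT5G62710, AT2G29300 and AT4G39880, none with a well-known role. AT5G66580 was at 5.01, 5.31 and 5.1 CPM in bdr1,2,3 at 27 °C and 3.54, 3.47 and 3.93 CPM in bdr1,2,3 at 12 °C. AT5G66580 in the wild type was at 8.72, 9.26 and 8.92 CPM at 27 °C and 2.15, 2.38 and 2.4 CPM at 12 °C. The mutant was above the wild type in the cold and below it in the heat, with no overlap (-1.46 ± 0.21 (log2, SE), adjusted p = 0.0028). AT2G29300, a Rossmann-fold gene, rose in both genotypes (2.03 in bdr1,2,3 and 2.92 in the wild type), with an interaction of -0.89 (adjusted p = 0.015, adjusted p up to 0.056 without bdr1,2,3 replicate 1 at 12 °C). AT3G24000 (a tetratricopeptide repeat gene, -1.31), AT5G62710 (a leucine-rich repeat kinase gene, -0.96) and AT4G39880 (a ribosomal protein L23/L15e family gene, -0.86) had no called response in bdr1,2,3 and called rises of 1.64, 0.97 and 0.64 in the wild type. AT3G24000 was called in 3 of the 12 fits that leave out 1 library, adjusted p up to 0.23 without bdr1,2,3 replicate 1 at 12 °C, AT5G62710 in 7 and AT4G39880 in 8 of them.

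**Figure D3:**
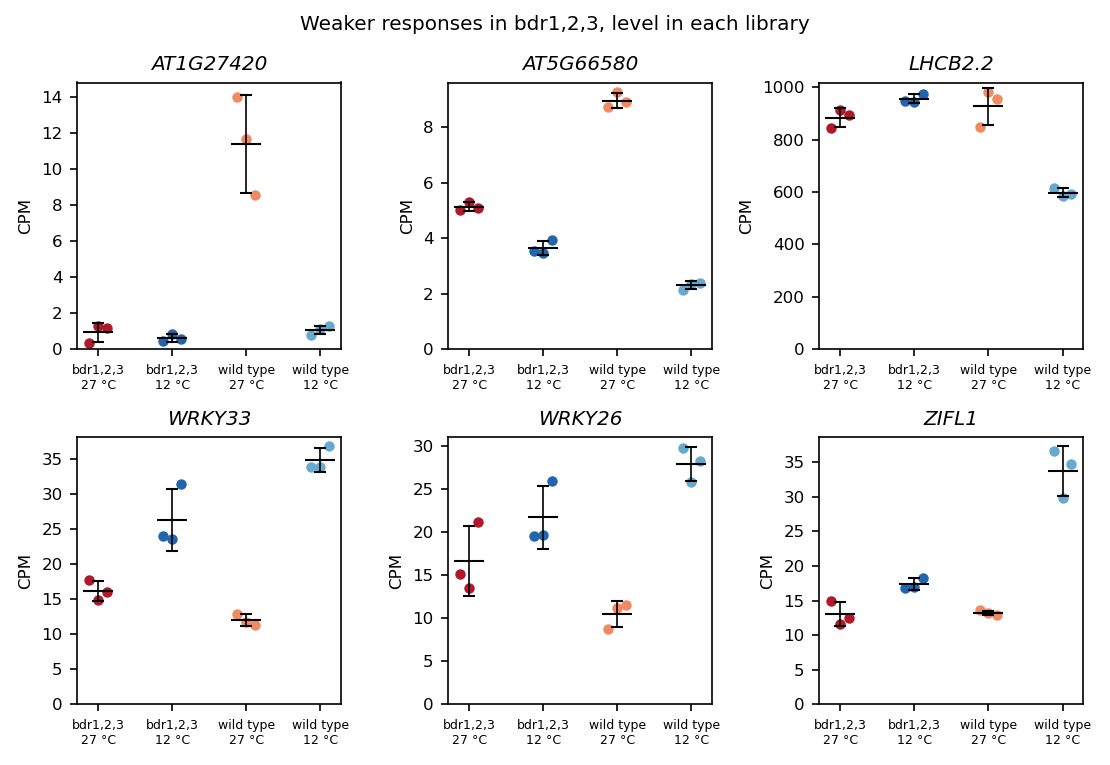
CPM of 6 genes with a weaker response in bdr1,2,3, in each of the 12 libraries (points), with the mean and SD of each group of 3 (bars), on linear axes that start at 0. The top row holds genes that rose in the wild type and the bottom row genes that fell there, and in each panel the 2 mutant groups lie closer together than the 2 wild type groups.

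Weaker falls included 2 WRKY factors, DNA-binding proteins of defence and stress that recognise the W box. WRKY33, needed for resistance to necrotrophic fungi, was at 17.8, 14.9 and 16.0 CPM in bdr1,2,3 at 27 °C and 24.0, 23.6 and 31.4 CPM in bdr1,2,3 at 12 °C, against 12.9, 11.8 and 11.3 CPM in the wild type at 27 °C and 33.8, 33.8 and 36.8 CPM in the wild type at 12 °C. The mutant lay below the wild type in every cold library and above it in every warm one (0.85 ± 0.16 (log2, SE), adjusted p = 0.015). WRKY33 overlaps other annotated genes and was called in 8 of the 12 fits that leave out 1 library, adjusted p up to 0.063 without wild type replicate 3 at 12 °C. WRKY26 was at 15.2, 13.5 and 21.2 CPM in bdr1,2,3 at 27 °C and 19.6, 19.7 and 26.0 CPM in bdr1,2,3 at 12 °C. WRKY26 in the wild type was at 8.72, 11.2 and 11.6 CPM at 27 °C and 29.8, 25.9 and 28.3 CPM at 12 °C. Its warm and cold libraries overlapped in bdr1,2,3 and did not in the wild type (1.04 ± 0.22 (log2, SE), adjusted p = 0.038). It was called in 5 of the 12 fits that leave out 1 library, adjusted p up to 0.12 without bdr1,2,3 replicate 1 at 12 °C, and not called without both replicate 1 heat libraries (adjusted p = 0.056).

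ZIFL1, a membrane transporter, was at 14.9, 11.7 and 12.4 CPM in bdr1,2,3 at 27 °C and 16.8, 16.9 and 18.3 CPM in bdr1,2,3 at 12 °C, against 13.6, 13.2 and 12.9 CPM in the wild type at 27 °C and 36.6, 29.8 and 34.7 CPM in the wild type at 12 °C. The warm groups overlapped and the cold wild type stood above the rest (0.95 ± 0.15 (log2, SE), adjusted p = 0.0053). EDA39, a calmodulin-binding protein, fell in both genotypes (-1.002 in bdr1,2,3 and -1.78 in the wild type), with an interaction of 0.78 (adjusted p = 0.025, called in 5 of the 12 fits that leave out 1 library, adjusted p up to 0.091 without bdr1,2,3 replicate 1 at 12 °C). AT4G01870, a tolB-like gene, also fell in both (-1.62 and -2.52), with an interaction of 0.90 (adjusted p = 0.0088). The jacalin lectin gene AT1G33790 (0.87, adjusted p = 0.023) and the uncharacterized AT2G18690 (1.01, adjusted p = 0.029) fell in the wild type with no called response in the mutant, and were called in 8 and 6 of those 12 fits.

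A further 4 genes of calcium signalling and immunity were singled out after their values were seen. TCH3, a touch-induced calmodulin-like protein, averaged 116 ± 9.32 CPM in warm bdr1,2,3 and 125 ± 4.73 CPM in cold bdr1,2,3, against 56.4 ± 10.2 and 152 ± 24.8 CPM in the warm and cold wild type (1.33 ± 0.18 (log2, SE), adjusted p = 0.0028). HIR2, a membrane protein of the hypersensitive response, averaged 149.5 ± 21.6 CPM in warm bdr1,2,3 and 139 ± 9.87 CPM in cold bdr1,2,3, against 78.8 ± 3.88 and 174 ± 19.3 CPM in the warm and cold wild type (1.25 ± 0.15 (log2, SE), adjusted p = 0.00075). Neither had a called response in bdr1,2,3, and both overlap annotated genes. ADR1-L1 and ADR1-L2 are helper immune receptors of the same small family. ADR1-L1 fell in the wild type (-0.89) with no called response in bdr1,2,3 (-0.18, adjusted p = 0.13), with an interaction of 0.72. ADR1-L2 rose in bdr1,2,3 (0.40) and fell in the wild type (-0.54), with an interaction of 0.93. They were called in 7 and 8 of the 12 fits that leave out 1 library. Over the 23 genes of salicylic acid and immunity tested, WRKY33 was the 1 called (4.35%, against 1.02% of all genes tested). Of the 23, 14 had positive and 9 negative interactions, and the median was 0.14. Both genotypes lowered most of that list, 19 members called down in bdr1,2,3 and 20 in the wild type.

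Because WRKY factors bind the W box, the 300 bases around the annotated start of each tested protein-coding gene (250 before to 50 after, TAIR10.1) were searched for its core TTGAC on both strands. It occurred in 22 of 34 weaker falls (64.7%), against 50.8% of all 18845 promoters tested. It was in 16 of 26 reversed genes (61.5%), 22 of 47 stronger rises (46.8%), 24 of 54 stronger falls (44.4%) and 14 of 32 weaker rises (43.8%). Other motifs were searched in the same windows. The heat shock element core (GAA and TTC on either side of a pair of free bases) was in 7 of the 34 weaker falls (20.6%, against 11.3% of all). The G box CACGTG was in 0 of 34 (against 9.0%) and the evening element core ATATCT in 13 (38.2%, against 25.9%). CCGAC was in 6 (17.6%, against 16.3%) and CGCG in 5 (14.7%, against 13.8%). Across the other classes these shares ran from 7.69% to 9.38% (heat shock element), 7.69% to 14.9% (G box) and 14.9% to 34.6% (evening element). These shares are descriptions of letters in a window and were not tested. The windows of the 3 called WRKY genes named here are shown with TTGAC, or GTCAA where it lies on the other strand, in capitals. They are on build TAIR10.1 at chr2:16107985-16108284, plus strand (WRKY33), chr5:2203956-2204255, plus strand (WRKY26) and chr3:327363-327662, minus strand (WRKY45), written 5′ to 3′ on the gene's strand.
WRKY33: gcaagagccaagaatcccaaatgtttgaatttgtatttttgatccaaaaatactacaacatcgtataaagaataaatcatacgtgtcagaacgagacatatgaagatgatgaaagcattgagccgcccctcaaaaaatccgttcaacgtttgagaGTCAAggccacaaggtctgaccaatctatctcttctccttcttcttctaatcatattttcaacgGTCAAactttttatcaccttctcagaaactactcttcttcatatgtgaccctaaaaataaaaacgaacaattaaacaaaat
WRKY26: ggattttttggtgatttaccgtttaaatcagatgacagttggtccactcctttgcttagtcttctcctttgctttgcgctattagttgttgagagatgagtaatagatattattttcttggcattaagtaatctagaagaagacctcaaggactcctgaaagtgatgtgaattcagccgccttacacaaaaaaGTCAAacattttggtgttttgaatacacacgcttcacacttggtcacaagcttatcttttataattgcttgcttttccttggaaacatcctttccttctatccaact
WRKY45: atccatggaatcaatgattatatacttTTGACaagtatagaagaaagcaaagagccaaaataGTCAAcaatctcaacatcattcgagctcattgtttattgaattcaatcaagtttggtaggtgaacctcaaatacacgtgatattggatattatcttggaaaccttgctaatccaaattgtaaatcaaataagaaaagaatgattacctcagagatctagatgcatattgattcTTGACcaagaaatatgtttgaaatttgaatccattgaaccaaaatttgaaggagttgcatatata

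WRKY45, the third of them, belonged to the stronger rises. It was at 7.19, 9.32 and 9.39 CPM in bdr1,2,3 at 27 °C and 2.44, 2.68 and 3.3 CPM in bdr1,2,3 at 12 °C. WRKY45 in the wild type was at 4.98, 4.79 and 5.72 CPM at 27 °C and 3.05, 3.49 and 4.11 CPM at 12 °C. It rose in both genotypes (1.63 in bdr1,2,3 and 0.53 in the wild type), with an interaction of 1.11 ± 0.25 (log2, SE), adjusted p = 0.044, called in 4 of the 12 fits that leave out 1 library, adjusted p up to 0.2 without wild type replicate 3 at 12 °C. HR4, a homologue of the broad mildew resistance protein RPW8, was at 73.6, 54.9 and 64.9 CPM in bdr1,2,3 at 27 °C and 22.2, 20.7 and 23.0 CPM in bdr1,2,3 at 12 °C, against 37.0, 29.1 and 28.0 CPM in the wild type at 27 °C and 18.9, 26.4 and 26.1 CPM in the wild type at 12 °C. The genotypes overlapped in the cold and not in the heat (1.15 ± 0.20 (log2, SE), adjusted p = 0.014, adjusted p up to 0.055 without wild type replicate 3 at 12 °C). AT5G38850, a TIR-NBS-LRR receptor gene, averaged 29.7 ± 1.91 CPM in warm bdr1,2,3 and 12.2 ± 0.847 CPM in cold bdr1,2,3, against 19.4 ± 1.22 and 15.7 ± 1.64 CPM in the warm and cold wild type (0.996 ± 0.14 (log2, SE), adjusted p = 0.0028).

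ZAT7, a zinc finger protein, differed in the cold instead. It was at 11.4, 7.64 and 7.1 CPM in bdr1,2,3 at 27 °C and 1.59, 2.21 and 2.46 CPM in bdr1,2,3 at 12 °C. ZAT7 in the wild type was at 11.1, 7.25 and 7.01 CPM at 27 °C and 4.68, 5.87 and 5.51 CPM at 12 °C. The warm groups overlapped and the cold mutant lay below the cold wild type (1.44 ± 0.33 (log2, SE), adjusted p = 0.048, called in 3 of the 12 fits that leave out 1 library, adjusted p up to 0.19 without bdr1,2,3 replicate 1 at 12 °C). The TraB family gene AT2G32340 rose in both genotypes (2.00 in bdr1,2,3 and 0.95 in the wild type; interaction 1.05, adjusted p = 0.015), and the uncharacterized AT3G45730 rose in bdr1,2,3 with no called response in the wild type (interaction 0.92, adjusted p = 0.021). They were called in 10 and 9 of those 12 fits.

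Of the 28 reversed genes, 14 had positive and 14 negative interactions. AT4G26220, a methyltransferase gene, was at 10.7, 8.29 and 7.99 CPM in bdr1,2,3 at 27 °C and 3.28, 3.47 and 3.58 CPM in bdr1,2,3 at 12 °C, against 2.56, 3.24 and 3.13 CPM in the wild type at 27 °C and 4.61, 4.05 and 4.11 CPM in the wild type at 12 °C. It rose in the mutant and fell in the wild type, with no overlap between temperatures in either genotype (1.91 ± 0.24 (log2, SE), adjusted p = 0.0013). PCR2, a zinc exporter of the plasma membrane, was at 18.5, 18.1 and 15.8 CPM in bdr1,2,3 at 27 °C and 10.2, 9.62 and 10.9 CPM in bdr1,2,3 at 12 °C. PCR2 in the wild type was at 9.76, 8.74 and 7.55 CPM at 27 °C and 8.7, 12.0 and 14.0 CPM at 12 °C. The rise in bdr1,2,3 was clear of overlap, while the wild type libraries overlapped between temperatures (1.18 ± 0.21 (log2, SE), adjusted p = 0.013, adjusted p up to 0.059 without wild type replicate 3 at 12 °C).

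The negative reversals included AT5G27395, a gene of the mitochondrial inner membrane translocase complex. It was at 4.87, 6.06 and 4.51 CPM in bdr1,2,3 at 27 °C and 6.78, 8.04 and 6.53 CPM in bdr1,2,3 at 12 °C, against 18.1, 15.2 and 13.8 CPM in the wild type at 27 °C and 8.03, 10.6 and 10.1 CPM in the wild type at 12 °C (-1.20 ± 0.22 (log2, SE), adjusted p = 0.014). NTRB, an NADPH-dependent thioredoxin reductase, was at 4.72, 4.57 and 4.36 CPM in bdr1,2,3 at 27 °C and 6.91, 7.25 and 5.76 CPM in bdr1,2,3 at 12 °C, against 37.8, 32.5 and 32.9 CPM in the wild type at 27 °C and 27.9, 23.8 and 24.9 CPM in the wild type at 12 °C. It was below the wild type at both temperatures, and the gap widened with heat (-0.97 ± 0.17 (log2, SE), adjusted p = 0.0092). TLL1, a lipase-like gene, averaged 54.0 ± 4.96 CPM in warm bdr1,2,3 and 84.4 ± 9.49 CPM in cold bdr1,2,3, against 82.0 ± 6.63 and 64.3 ± 2.55 CPM in the warm and cold wild type, so that the order of the genotypes turned round between temperatures (-0.999 ± 0.13 (log2, SE), adjusted p = 0.0016).

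MYB29, a regulator of aliphatic glucosinolate synthesis, was at 2.54, 2.14 and 1.55 CPM in bdr1,2,3 at 27 °C and 5.71, 3.94 and 4.84 CPM in bdr1,2,3 at 12 °C. MYB29 in the wild type was at 5.33, 3.56 and 4.49 CPM at 27 °C and 2.3, 3.63 and 2.87 CPM at 12 °C. The order of the genotypes turned round here too (-1.88 ± 0.32 (log2, SE), adjusted p = 0.01, adjusted p up to 0.051 without wild type replicate 3 at 12 °C). It was the 1 called gene of 30 glucosinolate genes tested (3.33%, against 1.02% of all genes tested). Of the 30, 23 had a negative interaction, with a median of -0.27. The uncharacterized AT1G13650 was below the wild type at both temperatures and further below at 27 °C (-0.96, adjusted p = 0.018, called in 8 of the 12 fits that leave out 1 library, adjusted p up to 0.097 without wild type replicate 3 at 12 °C). The reversals were small within each genotype: with a minimum of 1.5-fold on each of the 3 values, 3 genes stayed in this class.

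**Figure D4:**
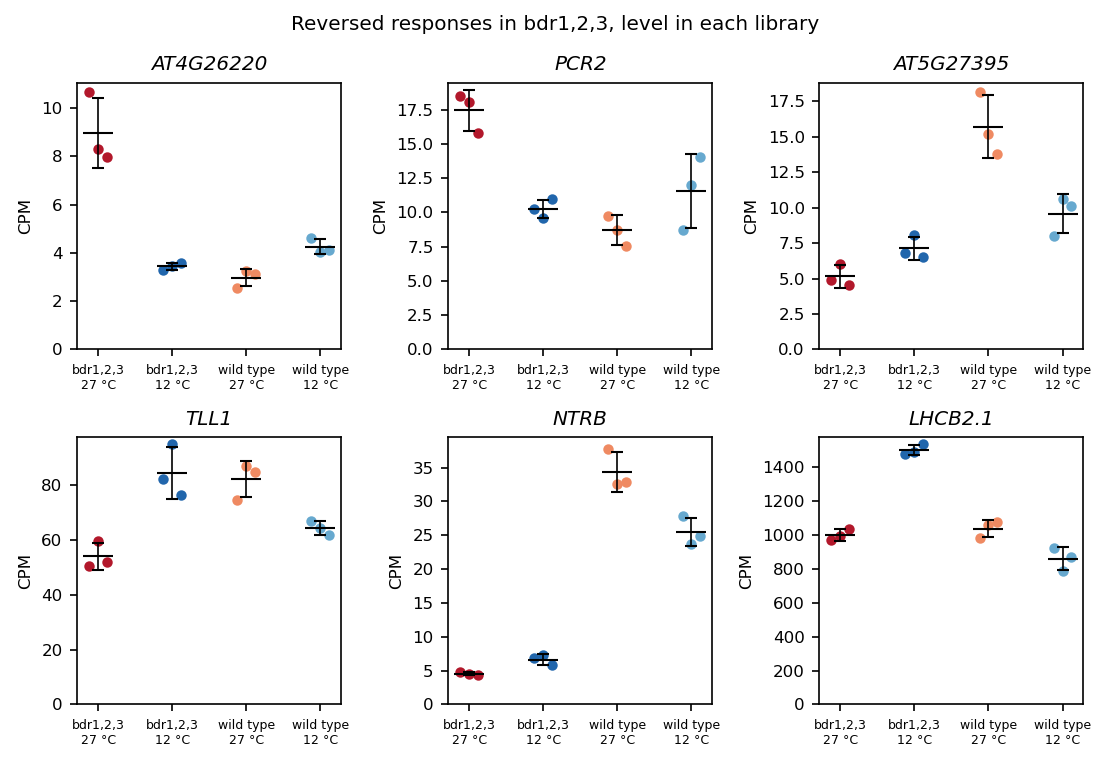
CPM of 6 genes with a reversed response, in each of the 12 libraries (points), with the mean and SD of each group of 3 (bars), on linear axes that start at 0. AT4G26220 and PCR2 are highest in warm bdr1,2,3, and the other genes fall with heat in bdr1,2,3 and rise in the wild type.

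No difference in response was called for the classical heat shock and cold genes, at a precision that varied widely. HSP70 (AT3G12580) rose in both genotypes (5.80 in bdr1,2,3 and 5.89 in the wild type), with an interaction whose 95% interval ran from -1.74 to 1.56. HSP101, which pulls apart protein aggregates, rose by 3.25 in bdr1,2,3 and by 3.00 in the wild type (interval -1.01 to 1.53). The chaperone HSP90.1 rose by 4.96 in bdr1,2,3 and by 5.42 in the wild type (interval -2.10 to 1.18), and the factor HSFA2 by 5.54 and 5.01 (interval -3.19 to 4.26). These intervals are wide and do not show equal responses. In all 4 genes, replicate 1 was above the other warm libraries of its genotype. HSP70, for example, was at 482, 237 and 273 CPM in bdr1,2,3 at 27 °C, against 513, 245 and 213 CPM in the wild type at 27 °C. None of the 17 small heat shock proteins (median interaction 0.13), 31 large chaperones and co-chaperones (median -0.01) or 17 heat shock factors (median 0.08) tested was called. The small heat shock proteins had a median response of 5.67 in bdr1,2,3 and 6.16 in the wild type.

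COR15A, which protects chloroplast membranes in the cold, was at 1.2, 0.746 and 1.04 CPM in bdr1,2,3 at 27 °C and 4.65, 7.49 and 6.53 CPM in bdr1,2,3 at 12 °C, against 0.623, 0.454 and 0.34 CPM in the wild type at 27 °C and 12.2, 5.73 and 4.58 CPM in the wild type at 12 °C. Its interaction of 1.40 was not called (adjusted p = 0.43, 95% interval -0.10 to 2.90). The interactions of COR15B (0.37, interval -1.75 to 2.49), RD29A (0.57, -0.04 to 1.19) and KIN1 (-0.17, -1.63 to 1.29) were not called. Nor were those of the cold regulators CBF1 (-1.81, -4.05 to 0.44), CBF2 (-0.54, -1.89 to 0.81) and CBF3 (-0.12, -1.74 to 1.50), all under 4 CPM in every library. No member of the 23 cold-regulated effectors or 19 CBF and cold signalling genes tested was called.

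Among growth and clock genes, PIF4, the main factor of warm-induced elongation, rose by 0.86 in bdr1,2,3 and by 1.06 in the wild type (interval of the interaction -0.53 to 0.13), and YUC8, an auxin synthesis gene that PIF4 switches on, by 1.61 and 1.15 (interval -0.39 to 1.296). The clock genes GI (0.02, -0.28 to 0.32), TOC1 (0.09, -0.17 to 0.36), CCA1 (0.33, -0.28 to 0.93) and LHY (-0.37, -1.29 to 0.55) were not called. For GI and TOC1, differences beyond 0.36 in either direction lay outside the interval. None of 36 genes of thermomorphogenesis and auxin response or of 33 clock genes was called.

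Of the 599 genes in 32 lists, 556 were tested and 13 were called, beside 198 of all 19473 genes tested (1.02%). No member was called in 23 lists. List medians of the interaction ran from -0.29 (26 flavonoid and anthocyanin genes, 20 of them negative) to 0.34 (abscisic acid), leaving out the marker lists and the BDR genes, beside -0.02 over all genes tested. Among 18 genes of RNA polymerase II elongation and termination, FCA was the 1 called (5.56%, against 1.02% of all genes tested), and 14 had a positive value. Leaf mesophyll markers share LHCB2.1 with the antenna list, and 5 of 5 had a negative interaction (median -0.29). Root markers had a negative value for 8 of 9 tested (median -0.32, summed levels 44.6 to 49.3 CPM in warm bdr1,2,3 and 46.2 to 61.3 CPM in cold bdr1,2,3, against 49.8 to 58.2 and 49.6 to 58.3 CPM in the warm and cold wild type). Stomatal lineage markers had a negative value for 6 of 6 tested (median -0.24), phloem markers for 2 of 3 and flower markers for 2 of 2. Seed storage and maturation genes had a positive value for 4 of 6. None of these or of the root markers was called, and their part in the results above was not tested.

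**Figure D5:**
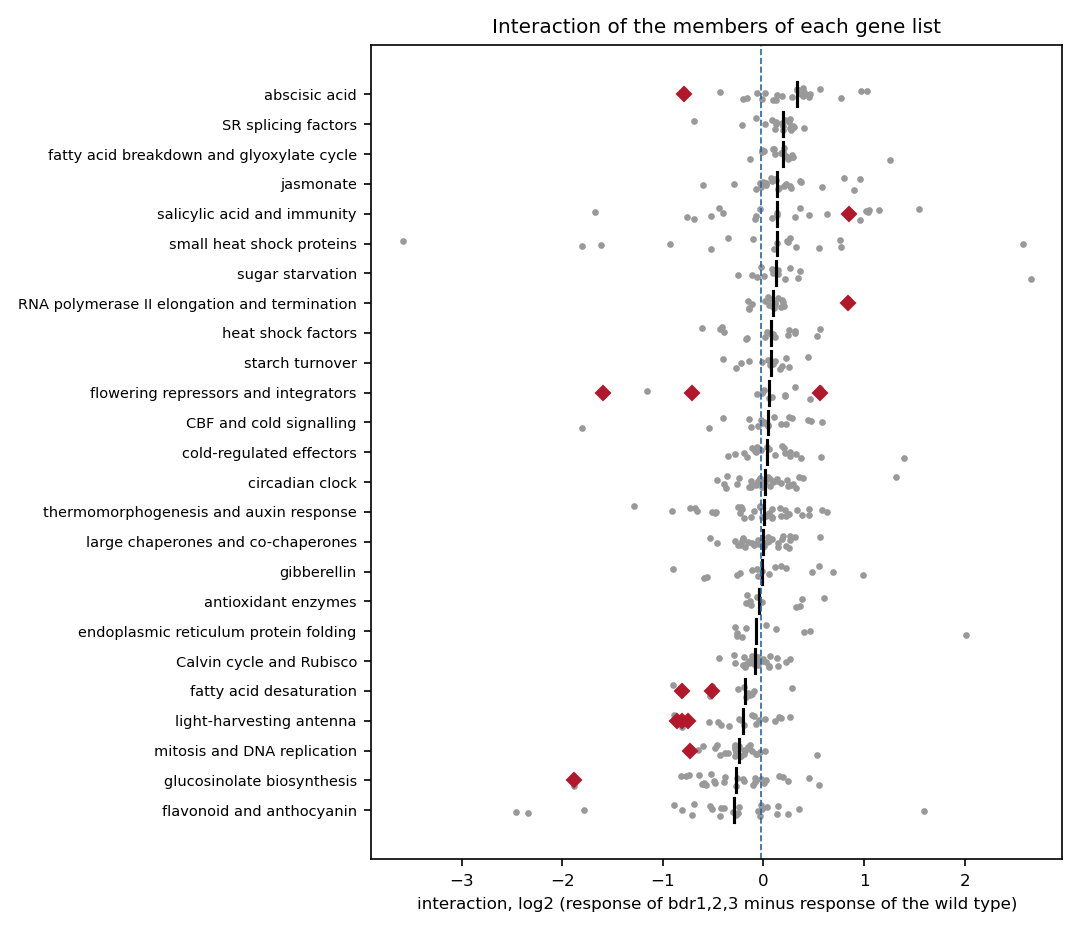
Interaction (log2, response of bdr1,2,3 minus response of the wild type) of every tested member of 25 gene lists. Grey points are members not called, red diamonds are called members, black bars are list medians and the dashed line is the median of all genes tested. The called members of the antenna and desaturation lists lie to the left, and most list medians lie near the dashed line.

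The study asks about genes that follow another on the same strand, so the upstream neighbour of each protein-coding gene was described. The nearest upstream gene, whether or not it overlapped, was on the same strand for 65 of 93 genes with a positive interaction (69.9%). It was so for 69 of 100 with a negative one (69.0%), against 51.5% of all protein-coding genes tested. The median distance to such a neighbour was 427 bp for positive and 165 bp for negative interactions, against 635 bp over all. An overlap was entered as a negative distance. A same-strand neighbour under 600 bp away, overlapping ones included, preceded 39 of the 93 positive genes (41.9%) and 50 of the 100 negative ones, against 25.1% of all. The shares by class ran from 65.4% (reversed) to 74.5% (stronger rise). Of the neighbours themselves, 1 of 56 tested before positive genes and 4 of 66 before negative genes were called, against 76 of 7254 before all protein-coding genes tested. Among genes named here, the neighbour AKR2 directly before NTRB averaged 369.8 and 503 CPM in warm and cold bdr1,2,3, against 322 and 431 CPM in the warm and cold wild type, and had an interaction of -0.02. The neighbour of AT5G27395, AT5G27390, had one of -0.08, and that of AT4G26220, AT4G26210, one of 0.32 (adjusted p = 0.6). Genes are not replicates, and none of these shares was tested.

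Next to each other among the genes tested were 5 pairs of called genes, and all 5 lay on the same strand. No share over all adjacent pairs of tested genes was taken, so neither count is shown to be high or low. The genes of 1 pair, LHCB2.2 and LHCB2.1, lay 22517 bp apart. How the counting split reads between these near-identical copies is uncertain. In 3 of the 5 pairs the interactions had opposite signs. AT1G52370, a ribosomal protein L22p/L17e family gene, was at 9.87, 6.71 and 6.58 CPM in bdr1,2,3 at 27 °C and 4.61, 5.2 and 5.2 CPM in bdr1,2,3 at 12 °C. AT1G52370 in the wild type was at 23.1, 22.0 and 21.2 CPM at 27 °C and 27.5, 25.6 and 24.2 CPM at 12 °C. It was far below the wild type at both temperatures and less so in the heat (0.87 ± 0.19 (log2, SE), adjusted p = 0.034), and was called in 5 of the 12 fits that leave out 1 library. The next gene, AT1G52380, which encodes a NUP50 nucleoporin, starts 3 bp after it. It was at 9.17, 10.7 and 8.88 CPM in bdr1,2,3 at 27 °C and 14.1, 14.8 and 14.2 CPM in bdr1,2,3 at 12 °C, against 17.9, 17.2 and 16.7 CPM in the wild type at 27 °C and 13.4, 13.3 and 15.6 CPM in the wild type at 12 °C. It had the mirror value (-0.87 ± 0.15 (log2, SE), adjusted p = 0.0088): the genotypes overlapped at 12 °C, and at 27 °C the mutant was lower. These pairs were noticed after the values were seen.

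The gaps before 4 of these closely spaced genes are shown, since they are the whole stretch between the annotated end of the upstream gene and the annotated start. They are written 5′ to 3′ on the gene's strand of build TAIR10.1 and hold 41 bases (AT1G27420, chr1:9519026-9519066, plus strand), 13 bases (AT4G26220, chr4:13283513-13283525, plus strand), 52 bases (AT5G27395, chr5:9674268-9674319, minus strand) and 46 bases (AT1G52370, chr1:19506310-19506355, plus strand). The study used TAIR10 annotations, whose borders may differ.
AT1G27420: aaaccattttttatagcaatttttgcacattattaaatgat
AT4G26220: cttcttctatcac
AT5G27395: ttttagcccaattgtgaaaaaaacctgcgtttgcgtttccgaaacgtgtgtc
AT1G52370: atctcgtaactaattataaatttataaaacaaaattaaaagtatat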

How the data were processed

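RNA-seq of 12 seedling libraries (stranded TruSeq mRNA kit, NextSeq 500) was analysed from the table of whole-number read counts per gene that the authors deposited. The submitters' processing notes name STAR 2.5.2b, SAMtools 1.3.1, featureCounts, R 3.3.2, DESeq2 1.14.1 and TAIR10. Whether counting used strand is not given in the sources used here, so overlapping genes are uncertain. The normalized heat shock table and both photomorphogenesis tables were not used.

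Counts were fitted in R 4.3.3 with edgeR 4.0.16 (TMM, filterByExpr, robust quasi-likelihood, 1 coefficient per group, all 12 libraries), with Benjamini-Hochberg adjustment over 19473 genes. DESeq2 1.42.0 was an alternative, beside other filters, thresholds and scalings, a replicate block and leaving out libraries. The fit was tested on simulated data. Members, gene lists and tests were chosen with earlier results of these data known. Named genes were the BDR genes, the 6 largest interactions per class (called, protein-coding, at least 5 CPM in a group, overlapping no other gene), called list members, fixed heat, cold, clock and growth genes, and upstream neighbours. Positions came from the RefSeq annotation of TAIR10.1, to which 19365 of the genes tested were matched. Intervals cover the spread between libraries only.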

Additional observations from a re-analysis of the deposited data

Results flagged for a closer look

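The difference between the genotypes' heat responses was itself tested, and 198 genes passed (edgeR, Benjamini-Hochberg adjusted p under 0.05). The log2 interactions (bdr1,2,3 minus wild type) of those named by the rule for largest changes or as list members are given by class. Among weaker rises the values were -2.81 for AT1G27420, -1.46 for AT5G66580, -1.31 for AT3G24000, -0.96 for AT5G62710, -0.89 for AT2G29300, -0.86 for AT4G39880 and -0.75 for LHCB2.2. Among weaker falls they were 1.04 for WRKY26, 1.01 for AT2G18690, 0.95 for ZIFL1, 0.90 for AT4G01870, 0.87 for AT1G33790, 0.85 for WRKY33, 0.78 for EDA39 and 0.56 for TEM1. Among stronger rises they were 1.44 for ZAT7, 1.15 for HR4, 1.11 for WRKY45, 1.05 for AT2G32340, 0.996 for AT5G38850, 0.92 for AT3G45730 and 0.84 for FCA. Among stronger falls they were -1.67 for AGO7, -1.59 for SOC1, -1.37 for PPT2, -1.301 for AT5G19850, -1.29 for AT4G40045, -1.26 for RECQ4B, -0.81 for FAD8, -0.81 for LHCB1.1, -0.79 for RD22, -0.73 for AUR2, -0.71 for SNZ and -0.51 for SLD1. Among reversed responses they were 1.91 for AT4G26220, 1.18 for PCR2, -1.88 for MYB29, -1.20 for AT5G27395, -0.999 for TLL1, -0.97 for NTRB, -0.96 for AT1G13650 and -0.86 for LHCB2.1.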

How the results depend on the processing

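The count of genes called in the interaction was 198, and it was 287 with DESeq2, 177 with its size factors in edgeR, 233 with no filter on low counts, 203 with at least 1 CPM in 3 libraries and 158 with a minimum of 1.5-fold, of which 190, 175, 196, 198 and 158 were among the 198. At an adjusted p under 0.01 it was 34. DESeq2 gave 105 weaker and 155 stronger responses. With the 1.5-fold minimum the heat response was called for 6713 genes in bdr1,2,3 and 6259 in the wild type, the genotype effect for 1607 genes at 27 °C and 960 at 12 °C, and 3 genes were reversed. At an adjusted p under 0.01 the genotype effect was called for 2157 genes at 27 °C and 1085 at 12 °C, with 8 weaker, 22 stronger and 4 reversed responses. The cause of these shifts other than the thresholds' own construction was not tested.

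With 1 library left out the interaction count ran from 42 to 354, the heat response from 10472 to 12243 genes in bdr1,2,3 and from 9915 to 11415 in the wild type, and the genotype effect from 2667 to 3902 genes at 27 °C and from 1293 to 2697 at 12 °C. Weaker responses ran from 10 to 117, stronger from 22 to 188 and reversed from 10 to 49. The called genes named by size within their class or as list members kept their sign in each of these settings. Signs were not tabulated for the other called genes. Genes that were not called changed sign with 1 library left out: GI ran from -0.0929 to 0.11, HSP101 from -0.11 to 0.65, COR15B from -0.19 to 0.65, HSP70 from -0.47 to 0.41, CBF2 from -1.01 to 0.10, CBF3 from -0.62 to 0.26, KIN1 from -0.49 to 0.22 and HSP90.1 from -0.84 to 0.11. Without both replicate 1 heat libraries the values were 0.14 for LHY, 0.029 for HSP70, 0.0353 for CBF3 and 0.0061 for KIN1.

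Replicate numbers were shared by the groups. Deviations from the group means correlated at -0.15 to 0.38 between same-numbered libraries, over 0.1 in 5 of 18 pairs. The highest value was between the replicate 1 heat libraries of the 2 genotypes. Of the 12 libraries, 2 correlated best with their own number in every other group. Whether same-numbered libraries shared more than a number was not tested. With the replicate number as a block, 286 genes were called, 197 of them among the 198. Counting neighbours under 600 bp alone, 84.8% of positive and 82.0% of negative genes had theirs on the same strand, against 59.3% of all protein-coding genes tested. With the neighbour taken instead as the next gene in order of start positions, the shares were 66.7% and 69.0%, against 51.1%. Overlapping neighbours were allowed in each of these counts. With 3 libraries a group, log2 differences near 0.5 were mostly out of reach.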

Other observations

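Among adjacent called genes, AT4G39880 and RABH1c, a small GTPase of vesicle traffic, lay 446 bp apart and had interactions of -0.86 and 1.142. AT4G04614 and ATG8B, a ubiquitin-like protein of autophagy, lay 177 bp apart with values of -0.85 and 0.49. AT2G29300 and AT2G29310, both Rossmann-fold genes 106 bp apart, had values of -0.89 and -0.61. Several lists with no called member had most of their genes on one side. Of 18 genes of fatty acid breakdown and the glyoxylate cycle, 15 had a positive interaction (median 0.19), and of 19 SR splicing factors, 16 did (median 0.19). Of 26 flavonoid and anthocyanin genes, 22 fell with heat in bdr1,2,3 and 17 in the wild type, with median responses of -1.32 in bdr1,2,3 and -0.84 in the wild type. Members of a list share regulators and are not independent, and these counts were not tested.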
